A study of Rattus norvegicus with 16 samples.

Results

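The smooth muscle contractile genes described here are 10 genes chosen by name: Acta2, Actg2, Tagln, Cnn1, Smtn, Lmod1, Des, Myh11, Myl9 and Mylk. They are 10 of the 14217 genes to which the platform annotation gave at least 1 probe set of their own. Every probe set annotated to 1 of these symbols alone was taken, and where a gene had several, the one whose mean over the 16 arrays was highest stands for it below. RNA came from the initial segment of the epididymis, the stretch of the duct nearest the testis, of adult male Sprague-Dawley rats. In efferent duct ligation the ducts that bring testicular fluid into the epididymis are tied off, here on 1 side of the animal. The 4 groups of 4 arrays are sham-operated tissue and tissue 6 h, 12 h and 18 h after ligation. Per the labels the sham operation was done on the opposite side of the same animals, so every sham sample also came from an animal with a ligated side. A single sham group serves all 3 times, so change with time alone cannot be read from these data. Replicates are labelled biological, with no animal named, and p-values then measure only the spread between these arrays. The tissue was dissected whole and not sorted.

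Smooth muscle cells shorten when actin filaments slide along filaments of smooth muscle myosin. The motor is switched on when its regulatory light chain is phosphorylated by myosin light chain kinase, and actin-bound proteins such as calponin, transgelin and smoothelin accompany the thin filament. In the epididymis smooth muscle forms a coat around the duct and lies in the walls of blood vessels. Many genes of this programme are known targets of serum response factor, which binds a short motif called the CArG box, and of its coactivator myocardin.

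Promoter sequences from RefSeq on the rat assembly GRCr8 were found for 6 of the 10 genes: Acta2, Actg2, Cnn1, Des, Mylk and Smtn. The 250 bases before the gene start were searched on both strands. A full CArG box was found in 0 of the 6, against 1.5% of 33469 windows of the same length. A CArG box, full or with 1 letter changed, was found in 2 of the 6, against 18.7% of all windows. Acta2 held a pair of such matches, at -134 and -84 from the gene start, and Smtn held 1, at -110. A TATAAA or TATATA motif was found in 1 of the 6, Acta2, at -42, against 16.1% of all windows. These stretches are shown because they hold the matches. The capitals mark the matches. The Acta2 stretch is at chr1:241172504-241172657 and the Smtn stretch at chr14:82644595-82644644, both on the minus strand of GRCr8.
Acta2: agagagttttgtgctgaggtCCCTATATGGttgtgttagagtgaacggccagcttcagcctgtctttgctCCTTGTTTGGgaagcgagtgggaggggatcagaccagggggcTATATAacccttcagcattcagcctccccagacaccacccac
Smtn: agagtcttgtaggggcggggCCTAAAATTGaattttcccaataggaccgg
A match describes the letters, and binding was not measured in these data. In the windows of Actg2, Cnn1, Des and Mylk no such letters were found. Those of Actg2 and Mylk lie 10340 and 36876 bases inside the outermost start of the gene, so they belong to another start.

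Levels are log2 values, and levels under 5 were treated as background. The 10 genes had 13 probe sets of their own, of which 11 reached 5 in at least 4 arrays and were tested, so 9 of the 10 genes were tested. Lmod1, which codes for leiomodin, an actin filament nucleator of smooth muscle, lay at 4.37 to 4.39 on all 16 arrays and gives no measurement. A second Smtn probe set lay at 2.22 to 2.28. A further 5 probe sets are annotated to both Acta2 and the cardiac actin gene Actc1. They lay at 2.22 to 4.20 and were not used. In whole tissue, fewer cells of a type and less RNA per cell cannot be told apart. Precision is limited by the number of arrays.

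The arrays of the whole series divide along the replicate numbers. Replicates 3 and 4 of sham and 6 h carried a bacterial dap control transcript at 7.23 to 7.98, which lay at the floor of 2.22 on all other arrays. Of the 13410 tested probe sets 36.9% were called by limma as different between replicates 3 and 4 and the other pair of replicates, with the group as a term of the fit. Every group has a pair of arrays on each side of this divide, and values within each pair are given where a result rests on them. The divide was known from earlier results of these data and its source was not tested.

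**Figure D1:**
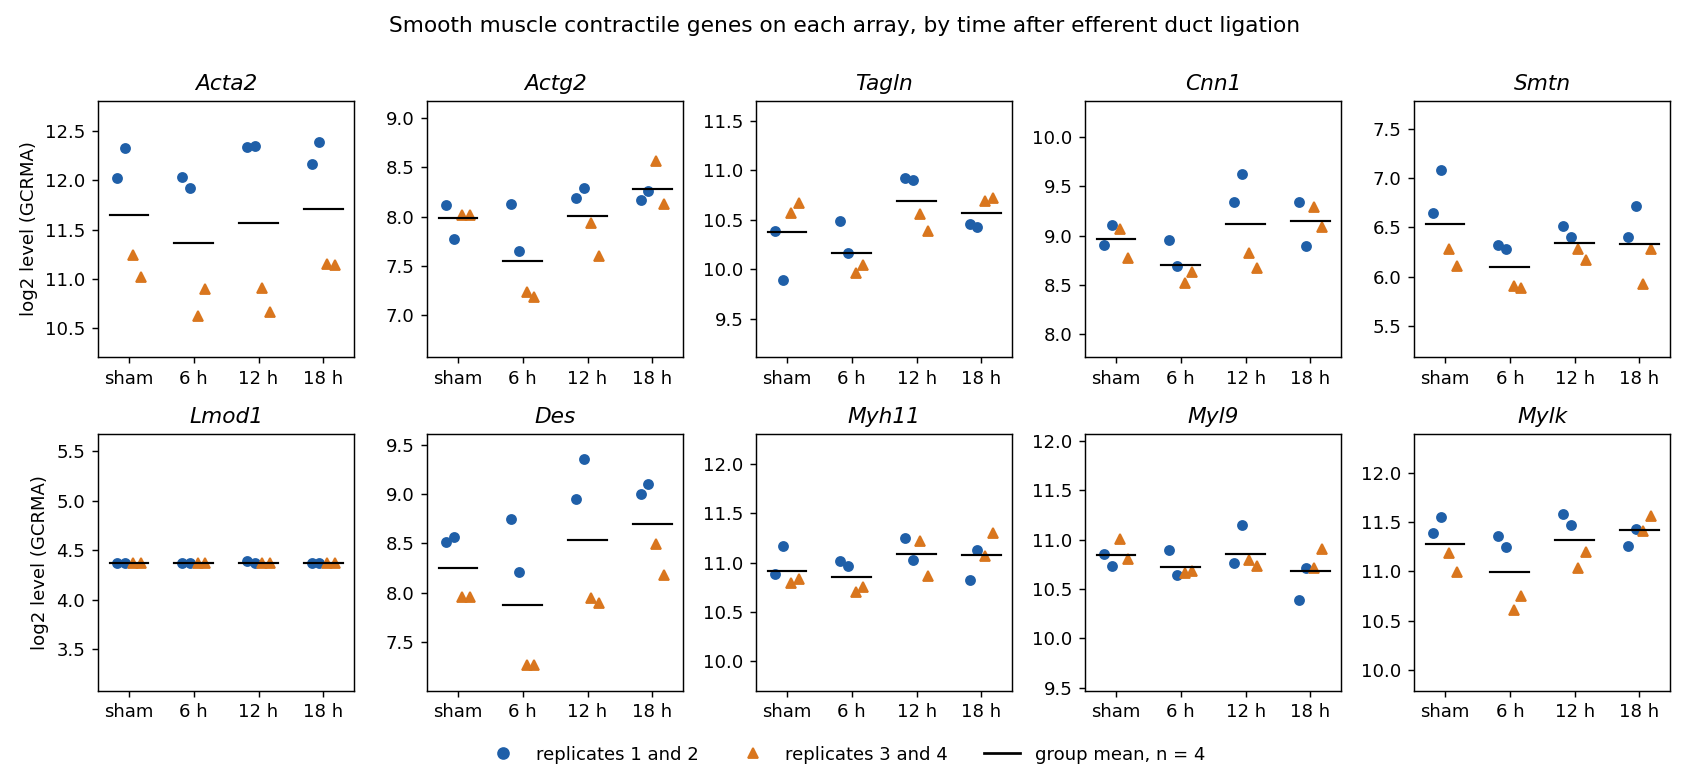
Log2 level (GCRMA, vertical axis of each panel) of the 10 genes on each of the 16 arrays, by time group (horizontal axis). Circles are replicates 1 and 2, triangles replicates 3 and 4, and bars the mean of 4 arrays. The vertical axes differ in position. Acta2 lies between 11.92 and 12.39 in all circles and between 10.62 and 11.24 in all triangles, whatever the group, and Lmod1 stays at 4.37 to 4.39.

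At 6 h of ligation all 9 tested genes had a group mean below that of sham, with differences from -0.43 to -0.06 and a median of -0.29, while the median over all tested probe sets was 0.02. None of the 9 passed the test. By limma, 0 had an adjusted p under 0.05 and 1 had an unadjusted p under 0.05, and the lowest adjusted p was 0.873. Of all tested probe sets 0.283% were called at this time, and 43.2% had a mean below sham. No gene had all 4 arrays at 6 h below all 4 sham arrays, against 1.54% of all probe sets.

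The thin filament and cytoskeletal genes had a median difference of -0.33 at 6 h. Actg2, the enteric gamma actin of smooth muscle, lay at 8.12, 7.78, 8.02 and 8.01 on sham arrays 1 to 4 and at 8.12, 7.65, 7.23 and 7.19 on the 6 h arrays. The difference was -0.43 ± 0.20 (SE, n = 4 arrays in each group; adjusted p = 0.873). Replicates 2, 3 and 4 at 6 h lay below every sham array, whereas replicate 1 lay level with the highest of them.

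Smtn codes for smoothelin, an actin-binding protein of contractile smooth muscle. It lay at 6.65, 7.08, 6.29 and 6.11 in sham and at 6.32, 6.29, 5.91 and 5.89 at 6 h, a difference of -0.43 ± 0.21 (SE; adjusted p = 0.927). The groups overlapped, and in both of them replicates 3 and 4 held the lowest arrays.

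Des codes for desmin, the intermediate filament protein of muscle. Its sham arrays lay at 8.51, 8.56, 7.96 and 7.96 and its 6 h arrays at 8.74, 8.21, 7.27 and 7.26, a difference of -0.37 ± 0.38 (SE; adjusted p = 1). Replicate 1 at 6 h was the highest of these 8 arrays and replicates 3 and 4 at 6 h the lowest.

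Cnn1 codes for calponin, an actin-bound protein that slows the myosin motor. Sham arrays 1 to 4 gave 8.91, 9.10, 9.07 and 8.77 and the 6 h arrays 8.96, 8.70, 8.52 and 8.63, a difference of -0.26 ± 0.19 (SE). Only replicate 1 at 6 h reached above the lowest sham array. Tagln, which codes for transgelin, an actin-binding protein abundant in smooth muscle, lay at 10.39, 9.89, 10.56 and 10.67 in sham and at 10.49, 10.16, 9.96 and 10.04 at 6 h, a difference of -0.22 ± 0.18 (SE). The lowest of these 8 arrays was sham replicate 2.

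Acta2, the alpha actin of smooth muscle, gave 12.02, 12.32, 11.24 and 11.02 in sham and 12.03, 11.92, 10.62 and 10.90 at 6 h. The difference of -0.29 ± 0.48 (SE; adjusted p = 1) was smaller than its error, and its 95% interval ran from -1.31 to 0.74. In both groups replicates 1 and 2 lay above replicates 3 and 4, and the groups overlapped.

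The genes of the motor and its kinase had a median difference of -0.13 at 6 h. Mylk codes for myosin light chain kinase. It lay at 11.39, 11.55, 11.19 and 10.99 in sham and at 11.36, 11.25, 10.61 and 10.76 at 6 h, a difference of -0.29 ± 0.18 (SE). Its replicates 3 and 4 at 6 h were the lowest arrays. Myl9, the regulatory light chain of smooth muscle myosin, lay at 10.85, 10.73, 11.01 and 10.80 in sham and at 10.90, 10.64, 10.67 and 10.68 at 6 h, a difference of -0.13 ± 0.12 (SE). Myh11, the smooth muscle myosin heavy chain, lay at 10.89, 11.16, 10.79 and 10.83 in sham and at 11.01, 10.96, 10.70 and 10.75 at 6 h, a difference of -0.06 ± 0.13 (SE). For both genes the arrays of the groups overlapped, and the 95% interval for Myh11 was -0.34 to 0.22.

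The 6 h difference lay mostly in replicates 3 and 4. Within that pair all 9 genes had both 6 h arrays below both sham arrays, with a median difference of -0.37, while 19.5% of all tested probe sets did so. Within replicates 1 and 2 it was 2 of the 9, with a median of -0.06, against 12.4% of all probe sets. The largest gaps between the pairs were those of Tagln (0.18 within replicates 1 and 2 and -0.61 within replicates 3 and 4) and Actg2 (-0.06 and -0.81). Only Smtn went the other way, with -0.56 within replicates 1 and 2 and -0.30 within replicates 3 and 4. An interaction term for the difference between the pairs, chosen after seeing the data, called 0 members at 6 h (3 at an unadjusted p under 0.05), 0 at 12 h (4) and 0 at 18 h (1). It called 0.0%, 0.0447% and 0.41% of all tested probe sets at these times. Its lowest adjusted p over the 9 genes was 0.163, for Tagln at 12 h.

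Markers of other cells were read in the same fit. Of 11 tested fibroblast markers, 9 had a mean below sham at 6 h, with a median of -0.33, and 0 were called by limma (0 at an unadjusted p under 0.05). The mean level of the 11 ran from 8.37 to 10.12 over the sham arrays, from 7.67 to 9.96 at 6 h, from 8.46 to 10.34 at 12 h and from 8.47 to 10.27 at 18 h. Of 10 tested macrophage markers 9 were below sham at 6 h, with a median of -0.23, and 0 were called (0 at an unadjusted p under 0.05). Means were below sham for 2 of 4 tested endothelial markers, with a median of 0.04, and for 4 of 12 tested epithelial markers, with a median of 0.08. The part of these cells in the 6 h differences of the contractile genes was not tested.

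At 12 h limma called 0 of the 9 (0 at an unadjusted p under 0.05, lowest adjusted p 0.373), against 7.86% of all tested probe sets. Means of 7 genes were above sham, where 54.2% of all probe sets were, and the median difference was 0.04. That median lay between those of the replicate pairs, with 0.17 within replicates 1 and 2 and -0.14 within replicates 3 and 4. No gene had groups that did not overlap, against 11.8% of all probe sets.

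The 12 h arrays 1 to 4 of Tagln lay at 10.92, 10.90, 10.56 and 10.39, a difference from sham of 0.32 ± 0.18 (SE; adjusted p = 0.373). Replicates 1 and 2 lay above all sham arrays, and the change was 0.77 within replicates 1 and 2 but -0.14 within replicates 3 and 4. Des stood at 8.95, 9.35, 7.94 and 7.90, a difference of 0.29 ± 0.38 (SE), and here too replicates 1 and 2 lay above all sham arrays and replicates 3 and 4 below. Cnn1 was measured at 9.34, 9.62, 8.83 and 8.67, a difference of 0.15 ± 0.19 (SE), again with replicates 1 and 2 above all sham arrays.

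The remaining thin filament genes did not pass the test at 12 h either. Actg2 lay at 8.19, 8.29, 7.94 and 7.60, a difference of 0.02 ± 0.20 (SE). Acta2 lay at 12.34, 12.35, 10.91 and 10.66, a difference of -0.09 ± 0.48 (SE). Smtn was at 6.51, 6.40, 6.29 and 6.17, a difference of -0.19 ± 0.21 (SE). For Actg2 and Acta2 the highest 12 h arrays lay above all sham arrays and the lowest below all of them, and the Smtn arrays lay within the sham range.

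Among the genes of the motor, Myh11 had 12 h levels of 11.25, 11.03, 11.22 and 10.87, a difference of 0.17 ± 0.13 (SE). Myl9 gave 10.76, 11.15, 10.79 and 10.74, a difference of 0.01 ± 0.12 (SE). Mylk gave 11.58, 11.47, 11.03 and 11.19, a difference of 0.04 ± 0.18 (SE). The groups of all 3 genes overlapped. The 95% intervals were -0.11 to 0.45 for Myh11, -0.25 to 0.28 for Myl9 and -0.34 to 0.43 for Mylk.

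At 18 h limma again called 0 of the 9 genes (0 at an unadjusted p under 0.05, lowest adjusted p 0.437), against 10.2% of all tested probe sets. Means of 7 genes were above sham, where 51.8% of all probe sets were, and the median difference was 0.16. Actg2 was the 1 gene whose 18 h arrays all lay above all sham arrays, as did 7.66% of all probe sets. It stood at 8.17, 8.26, 8.57 and 8.13, a difference of 0.30 ± 0.20 (SE; adjusted p = 0.437). The gap was narrow, since the lowest 18 h array lay at 8.13 and the highest sham array at 8.12.

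Des lay at 9.00, 9.10, 8.49 and 8.18 at 18 h, a difference of 0.44 ± 0.38 (SE; adjusted p = 0.57). Within each pair of replicates both 18 h arrays lay above both sham arrays. Cnn1 lay at 9.34, 8.89, 9.29 and 9.08 (0.19 ± 0.19, SE) and Tagln at 10.46, 10.42, 10.69 and 10.72 (0.19 ± 0.18, SE). Both genes overlapped with sham. Acta2 lay at 12.17, 12.39, 11.15 and 11.14, a difference of 0.06 ± 0.48 (SE), and Smtn at 6.40, 6.72, 5.92 and 6.28, a difference of -0.20 ± 0.21 (SE). Their arrays kept to the sham range apart from the highest of Acta2 and the lowest of Smtn.

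In the motor group at 18 h Myh11 lay at 10.82, 11.12, 11.07 and 11.30, a difference of 0.16 ± 0.13 (SE). Mylk lay at 11.26, 11.43, 11.41 and 11.56, a difference of 0.14 ± 0.18 (SE), with -0.12 within replicates 1 and 2 and 0.39 within replicates 3 and 4. Myl9 lay at 10.39, 10.72, 10.72 and 10.90, a difference of -0.17 ± 0.12 (SE), and its replicate 1 was the lowest of its 16 arrays. The 95% intervals of these differences all included 0, with the widest being that of Mylk from -0.25 to 0.52.

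**Figure D2:**
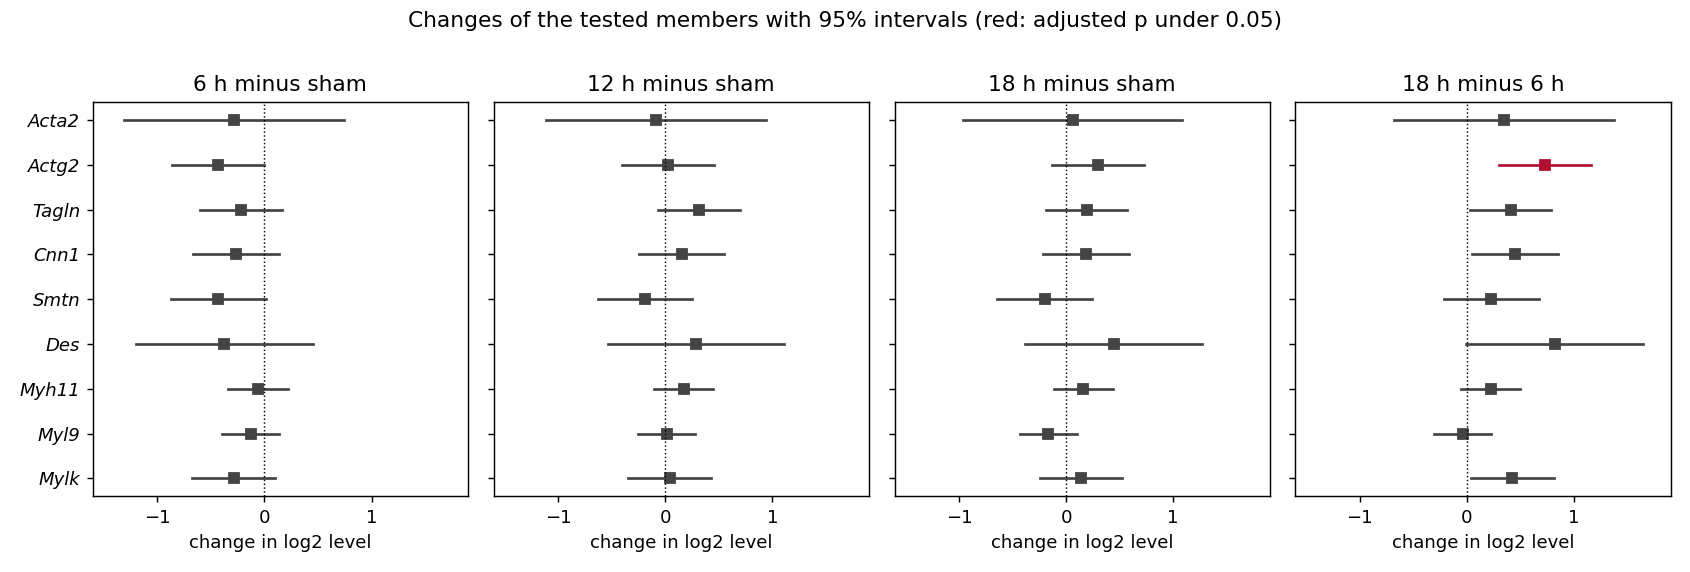
Difference in log2 level (horizontal axis) of the 9 tested genes in 4 comparisons, as squares with 95% intervals from the fit over 16 arrays. The 1 difference with an adjusted p under 0.05, drawn in red, is Actg2 at 18 h against 6 h (0.73). Every square lies left of 0 at 6 h against sham.

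A moderated F-test over the 3 times against sham called 0 of the 9 genes (2 at an unadjusted p under 0.05, Actg2 and Tagln), against 10.2% of all tested probe sets. The lowest adjusted p was 0.124, for Actg2.

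Among the 3 times of ligation, the 6 h mean was the lowest for 8 of the 9 genes. Actg2 rose from 6 h to 18 h by 0.73 ± 0.20 (SE, n = 4 arrays in each group; adjusted p = 0.0386), or 1.66-fold, with a 95% interval of 0.30 to 1.16. All 4 arrays at 18 h lay above all 4 at 6 h, by a narrow gap between 8.13 and 8.12. Actg2 was the 1 gene of the 9 called in this comparison (4 at an unadjusted p under 0.05), against 7.88% of all tested probe sets, and the 1 whose groups did not overlap, against 6.67% with higher arrays at 18 h. Differences of 8 of the 9 genes were above 0, with a median of 0.41, where 47.4% of all probe sets were above 0. The change of Actg2 was 0.33 within replicates 1 and 2 and 1.14 within replicates 3 and 4. Its call was lost when any of 8 single arrays was left out: sham replicates 3 and 4, 6 h replicates 2, 3 and 4, and 18 h replicates 1, 2 and 3. Over all 16 such fits its adjusted p ran from 0.0102 to 0.118.

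The other differences between 18 h and 6 h did not pass the test over all arrays. They were 0.82 ± 0.38 (SE; adjusted p = 0.228) for Des, 0.45 ± 0.19 (SE) for Cnn1, 0.42 ± 0.18 (SE) for Mylk, 0.41 ± 0.18 (SE) for Tagln, 0.35 ± 0.48 (SE) for Acta2, 0.23 ± 0.21 (SE) for Smtn, 0.22 ± 0.13 (SE) for Myh11 and -0.04 ± 0.12 (SE) for Myl9. With the pair of replicates as a block, limma called 3 of the 9 genes, Des (adjusted p = 0.00454), Actg2 (0.0168) and Mylk (0.0499), against 15.1% of all probe sets. With 3 array sets as a block, which also part the arrays with and without the dap control, it called 1 of the 9, Des (adjusted p = 0.0213), and the change of Actg2 was 0.66 with an adjusted p of 0.0926, against 8.75% of all probe sets. Within replicates 3 and 4 alone it called 4, Des, Actg2, Mylk and Tagln (adjusted p from 0.0193 to 0.0374), against 3.43% of all probe sets. Within replicates 1 and 2 alone it called 0, against 4.63%. With the replicate number as a block it called 2, Des (adjusted p = 0.00944) and Actg2 (0.021), against 14.4%.

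Seen pair by pair, all 9 genes had both 18 h arrays above both 6 h arrays within replicates 3 and 4, with a median of 0.61, where 25.5% of all probe sets did. Within replicates 1 and 2 it was 4 of the 9, with a median of 0.25, against 24.7%. These counts share the 6 h arrays with those against sham. Between 6 h and 18 h the differences of all 11 fibroblast markers were also above 0 (median 0.46, 0 called). So were those of all 10 macrophage markers (median 0.67, 1 called). Of 12 tested epithelial markers 2 were below 0, with a median of 0.30 and 3 called higher. Of 4 tested endothelial markers 1 was below 0 (median 0.20, 1 called higher). All 6 tested markers of the initial segment epithelium were below 0 (median -0.64, 2 called lower). Limma called 7.88% of all probe sets in this comparison. The part of these cells in the rise of Actg2 was not tested. Within replicates 3 and 4 the dap control divides sham and 6 h from 12 h and 18 h. Ligation time and array set cannot be told apart there for the rise after 6 h, nor for 12 h and 18 h against sham. With the array set as a block the difference of Myh11 from sham was 0.02 at 12 h and 0.01 at 18 h, against 0.17 and 0.16 without it. The median over the 9 genes was then 0.02 at 12 h and 0.17 at 18 h.

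**Figure D3:**
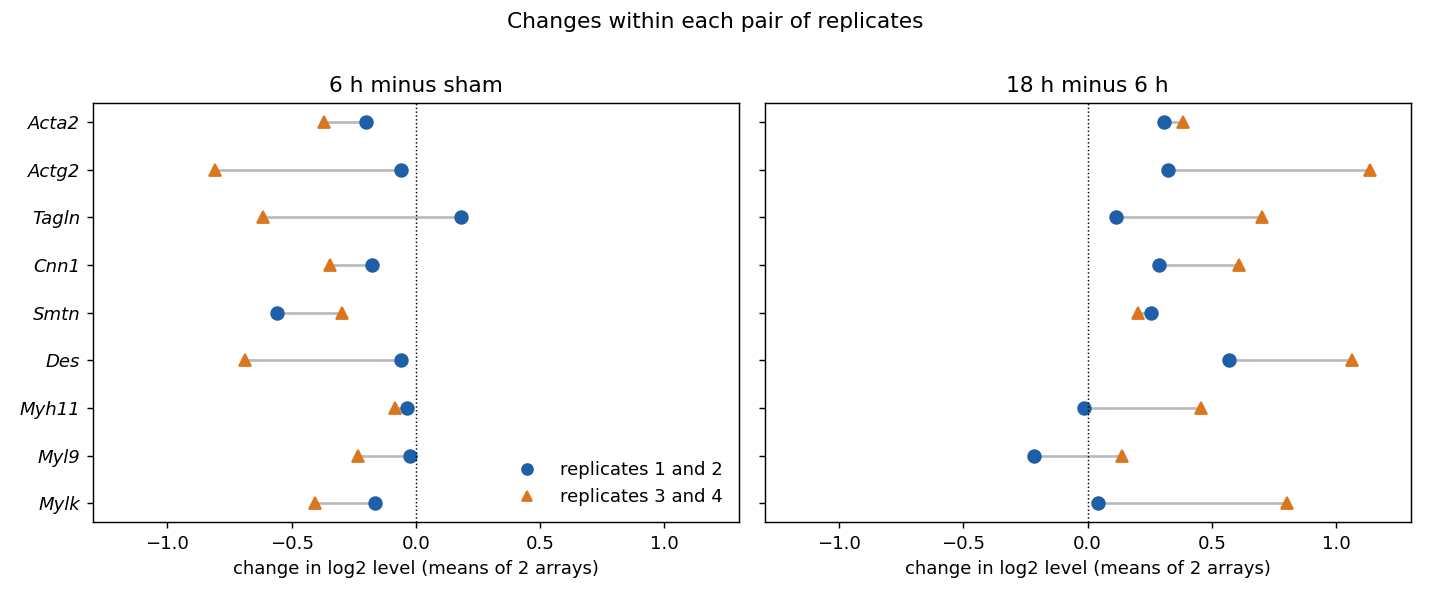
Difference in log2 level (horizontal axis) of the 9 tested genes at 6 h against sham and at 18 h against 6 h, as means of 2 arrays within replicates 1 and 2 (circles) and within replicates 3 and 4 (triangles). Triangles lie left of 0 for all 9 genes at 6 h against sham and right of 0 for all 9 at 18 h against 6 h, and the circles lie nearer 0 for most genes.

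From 6 h to 12 h all 9 genes had differences above 0, with a median of 0.33, where 49.1% of all probe sets were above 0. By limma 0 were called (3 at an unadjusted p under 0.05, lowest adjusted p 0.119 for Tagln), against 4.28% of all probe sets. With the pair of replicates as a block it called 1, Des, by 0.66 (adjusted p = 0.0222), against 9.06%. With the replicate number as a block it also called Des alone (adjusted p = 0.0365), against 8.7%. With the array set as a block it did not call Des (adjusted p = 0.0622). All 11 fibroblast markers (median 0.64, 0 called) and all 10 macrophage markers (median 0.40, 0 called) had differences above 0 here too. Of 12 tested epithelial markers 3 were below 0 (median 0.20, 0 called), as was 1 of 4 tested endothelial markers (median 0.11, 0 called). All 6 tested markers of the initial segment epithelium were below 0 (median -1.05, 1 called lower). From 12 h to 18 h limma called 0 of the 9 genes (0 at an unadjusted p under 0.05), and 0.0% of all probe sets. For any time against sham, the pair block called Des alone (adjusted p = 0.0109), against 17.8% of all probe sets. The block of replicate number did so too (adjusted p = 0.0227), against 16.7%. A fit within replicates 3 and 4 also called Des alone (adjusted p = 0.0343), against 4.21%. The block of array set did not call Des in this F-test (adjusted p = 0.0702).

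The contractile genes differed among themselves most in how they stood on the divide between replicates. Limma called 4 of the 9 genes lower in replicates 3 and 4 than in replicates 1 and 2, with the group as a term, and 0 higher. Of all tested probe sets 18.7% were called lower and 36.9% in either direction. Differences of 8 of the 9 were below 0, with a median of -0.25, where 49.1% of all probe sets were below 0. Acta2 was lower by -1.24 ± 0.09 (SE, n = 8 arrays on each side; adjusted p = 6.73e-07), or 2.36-fold, and was the 1 gene whose arrays did not overlap, as was the case for 3.77% of all probe sets. Its replicates 1 and 2 lay at 11.92 to 12.39 and its replicates 3 and 4 at 10.62 to 11.24.

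Des was lower by -0.93 ± 0.11 (SE; adjusted p = 5.18e-05), Smtn by -0.44 ± 0.09 (SE; adjusted p = 0.00183) and Mylk by -0.32 ± 0.10 (SE; adjusted p = 0.0183). Their arrays overlapped across the divide. Cnn1 (-0.25 ± 0.12, SE; adjusted p = 0.107), Actg2 (-0.24 ± 0.13, SE; adjusted p = 0.165), Myh11 (-0.09 ± 0.09, SE), Tagln (-0.01 ± 0.13, SE) and Myl9 (0.02 ± 0.09, SE) were not called. The genes called came from both roles, with 3 of the 6 tested genes of the thin filament and cytoskeleton and 1 of the 3 of the motor and its kinase.

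Second probe sets of a gene did not always repeat the first. A second Mylk probe set, at 7.20 to 9.38, was lower in replicates 3 and 4 by -1.20 ± 0.16 (SE; adjusted p = 0.000117) with arrays that did not overlap, a larger difference than that of the first. The second Myh11 probe set, at 6.31 to 7.73, differed by -0.28 ± 0.21 (SE; adjusted p = 0.315). Neither was called in any comparison of times. From 6 h to 18 h the second Mylk probe set differed by 0.22. Limma did not call it with the replicate pair as a block (adjusted p = 0.583) or within replicates 3 and 4 (adjusted p = 0.169). Both of these fits called the first Mylk probe set. Against sham the second differed by -0.16 at 12 h and by -0.16 at 18 h, and the first by 0.04 and 0.14.

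Fibroblast markers differed across the same divide, on which 18.7% of all tested probe sets were called lower and 36.9% in either direction. All 11 tested were called lower in replicates 3 and 4, with a median of -1.65, and the mean of the 11 was 9.39 to 10.34 in replicates 1 and 2 and 7.67 to 8.93 in replicates 3 and 4. Macrophage markers were called lower for 8 of 10 tested, with a median of -0.96 and mean levels of 6.75 to 8.02 and 5.55 to 6.97. Of the pericyte markers, 3 of 8 were tested and 1, Mcam, was called lower, and the defining pericyte genes Rgs5 and Cspg4 were below the minimum level. Of 12 tested epithelial markers 1 was called higher and 1 lower, with a median of -0.08. The part of these cells in the contractile differences was not tested.

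The share of the spread that fell along each axis was read from sums of squares over the 16 arrays. The group share rests on 4 group means and the other on a single divide. Spread with neither effect would on average give the groups the larger share, so the shares of a gene are not ranked. For Acta2 91.1% lay between the pairs of replicates and 4.06% between the time groups. For Des the shares were 61.7% and 27.5%, and for Smtn 52.2% and 25.0%. For Actg2 10.6% lay between the pairs and 51.3% between groups, for Tagln 0.0126% and 45.0%, and for Cnn1 18.0% and 36.2%. The shares of Mylk were 33.6% and 32.8%. Most of the spread of Myl9 (77.2%) and Myh11 (63.5%) lay along neither. Medians over all tested genes were 15.2% between the pairs and 26.5% between groups, beside 18.0% and 30.5% over the 9 genes.

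**Figure D4:**
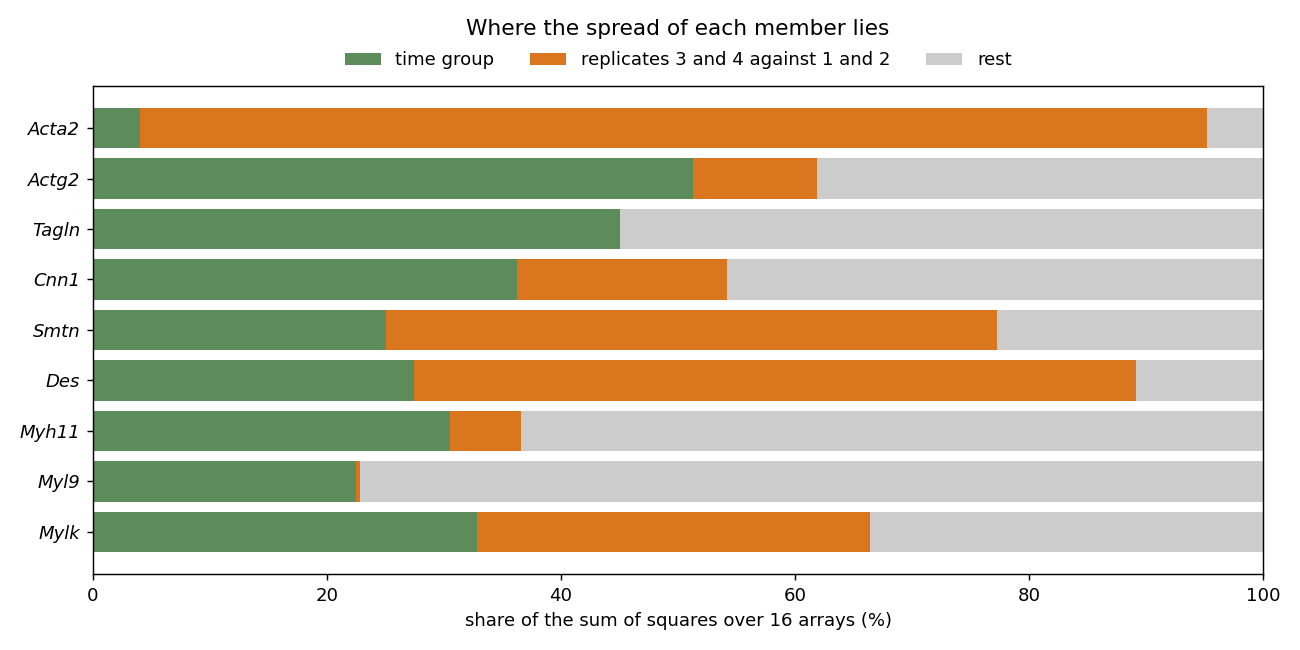
Share of the sum of squares over the 16 arrays (horizontal axis, in percent) that lies between the 4 time groups, between replicates 3 and 4 and replicates 1 and 2, and in the rest, for the 9 tested genes. The share of the replicate pairs runs from 0.0126% for Tagln to 91.1% for Acta2.

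Acta1, the alpha actin of skeletal muscle and not one of the 10 genes, is given because its group means ran in the same order as those of Actg2. Its levels were 9.70, 9.68, 9.45 and 9.52 in sham, 9.11, 8.60, 8.47 and 8.59 at 6 h, 10.25, 9.83, 9.70 and 9.87 at 12 h, and 10.50, 10.30, 10.18 and 9.81 at 18 h. At 6 h it fell by 0.90 ± 0.17 (SE; adjusted p = 0.0422) and at 18 h it rose by 0.61 ± 0.17 (SE; adjusted p = 0.0355), in each case with no overlap with sham. At 12 h the difference was 0.33 ± 0.17 (SE; adjusted p = 0.322). The change at 6 h was -0.84 within replicates 1 and 2 and -0.96 within replicates 3 and 4. Of the 13 striated muscle markers on the list, 11 had a probe set of their own and 2 were tested, Acta1 and Myh1. Myh1, a skeletal myosin heavy chain, lay at 10.90 to 12.32 over the 16 arrays and differed from sham by 0.01 ± 0.27 (SE; adjusted p = 1) at 6 h and by 0.49 ± 0.27 (SE; adjusted p = 0.316) at 18 h. The other 9 were below the minimum level, among them Ckm at 2.22 to 2.27, Myh2 at 2.22 and Mb at 2.22 to 2.23. The part of striated muscle in the differences of Actg2 was not tested. Whether the actin probe sets bind each other's transcripts was not tested.

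**Figure D5:**
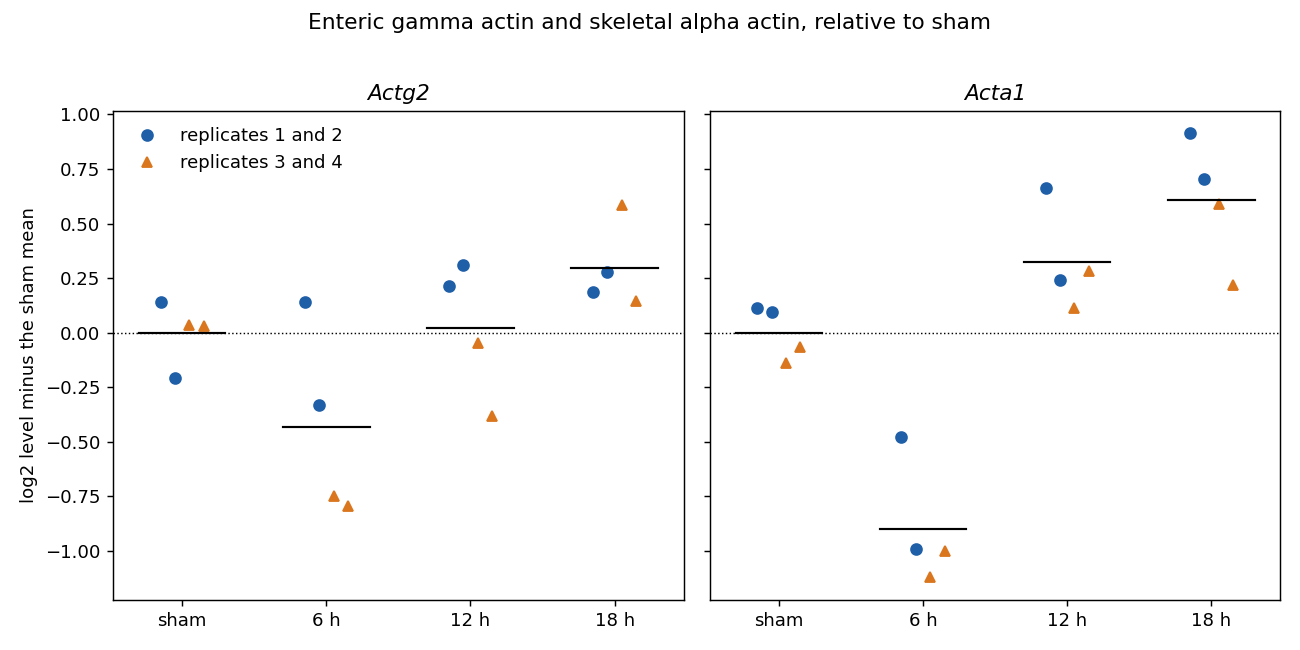
Log2 level minus the sham mean (vertical axis) of Actg2 and of Acta1 on each array, by time group (horizontal axis). Circles are replicates 1 and 2, triangles replicates 3 and 4, and bars group means of 4 arrays. All 6 h arrays of Acta1 lie below all sham arrays, whereas those of Actg2 overlap with sham.

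Around the 10 genes, other parts of the contractile apparatus were counted from lists. Of 28 genes of the thin filament and of adhesion plaques, where filaments attach to the membrane, 21 were tested. None was called at 6 h (1 at an unadjusted p under 0.05), 1 rose at 12 h, and 2 rose and 1 fell at 18 h, with medians of -0.08, 0.04 and 0.14. Of all tested probe sets 0.283%, 7.86% and 10.2% were called at these times. With the replicate number as a block 3 were called at 12 h, with Tpm1 (0.37, adjusted p = 0.0438) and Csrp1 (-0.46, adjusted p = 0.0178) added, against 12.7% of all probe sets. Actn1, an actin crosslinking alpha actinin, had sham levels of 8.82, 9.24, 9.16 and 9.01, and 9.49, 9.38, 9.86 and 9.59 at 12 h and 9.71, 9.66, 10.24 and 9.96 at 18 h. It rose by 0.52 ± 0.15 (SE; adjusted p = 0.0448) and 0.83 ± 0.15 (SE; adjusted p = 0.0021), and at both times all its arrays lay above those of sham. With the array set as a block the 12 h call was lost (adjusted p = 0.175).

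Tpm1, an alpha tropomyosin that lies along the actin filament, rose at 18 h by 0.53 ± 0.11 (SE; adjusted p = 0.00656), from 12.13 to 12.37 in sham to 12.70 to 12.87. With the array set as a block its adjusted p was 0.053. Csrp1, a LIM protein of smooth muscle, at 18 h fell by 0.61 ± 0.17 (SE; adjusted p = 0.0339), from 12.70 to 13.18 in sham to 12.10 to 12.50. Neither gene had an 18 h array that overlapped with sham.

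Of 26 genes of myosin light chain phosphorylation and calcium handling, 15 were tested. None was called at 6 h (1 at an unadjusted p under 0.05), 2 fell at 12 h and 3 at 18 h, and none rose, with medians of -0.06, -0.15 and -0.12. The shares over all probe sets were again 0.283%, 7.86% and 10.2%. With the replicate number as a block 4 were called at 12 h, with Myl12a (-0.53, adjusted p = 0.011) and Dmpk (-0.49, adjusted p = 0.0408) added, against 12.7%. Itpr1, a calcium release channel of the endoplasmic reticulum, gave 8.88, 8.78, 8.99 and 8.89 in sham and 8.05, 7.85, 7.94 and 8.35 at 18 h. It fell by 0.47 ± 0.13 (SE; adjusted p = 0.033) at 12 h and fell by 0.84 ± 0.13 (SE; adjusted p = 0.000624) at 18 h. The 18 h arrays all lay below the sham arrays. With the array set as a block the 12 h adjusted p was 0.132.

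Myl12b, a regulatory light chain that also serves non-muscle myosin, fell by 0.47 ± 0.14 (SE; adjusted p = 0.0491) at 12 h and fell by 0.61 ± 0.14 (SE; adjusted p = 0.00999) at 18 h, when it lay at 11.41 to 11.78 against 12.07 to 12.42 in sham. Dmpk, a kinase that can act on the phosphatase of the light chain, fell by 0.68 ± 0.15 (SE; adjusted p = 0.00903) at 18 h, to 7.46 to 7.73 from 8.16 to 8.46. Neither overlapped with sham at 18 h.

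Of 18 genes of the transcriptional control of the programme, 14 were tested. None was called at 6 h (0 at an unadjusted p under 0.05), 1 fell at 12 h, and 2 rose and 1 fell at 18 h, with medians of -0.06, -0.03 and 0.04, beside shares of 0.283%, 7.86% and 10.2% over all probe sets. Hey2, a repressor that acts downstream of Notch, lay at 6.93 to 7.31 in sham. It fell by 2.49 ± 0.41 (SE; adjusted p = 0.00169) at 12 h and it fell by 3.16 ± 0.41 (SE; adjusted p = 0.000197) at 18 h. Its means of 4.64 and 3.97 at these times were under 5, so the size of both falls is not settled. Klf5, a zinc finger factor, lay at 4.08 to 5.22 in sham and at 7.92, 8.06, 8.42 and 6.43 at 18 h. It rose by 3.24 ± 0.64 (SE; adjusted p = 0.00475), a size that is not settled either, since its sham mean of 4.47 was under 5. Tead1, a TEA domain factor, rose at 18 h by 1.19 ± 0.33 (SE; adjusted p = 0.0339), from 7.82, 8.51, 7.92 and 7.63 to 9.79, 9.39, 9.31 and 8.16, and replicate 4 alone overlapped with sham. Srf, the serum response factor, differed by 0.24 ± 0.13 (SE; adjusted p = 0.326) at 18 h, and Myocd, the gene of myocardin, lay at 3.12 to 3.87, below the minimum level.

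Of 13 receptors of contraction only Avpr1a, the vasopressin receptor 1A, was tested, and it was not called (0.62 ± 0.50, SE, at 12 h; adjusted p = 0.581). Of 5 non-muscle actin and myosin genes 3 were tested and 0 were called at any time against sham, with 0, 0 and 2 at an unadjusted p under 0.05 at 6, 12 and 18 h. Myh9, a non-muscle myosin heavy chain, had the smallest p of them, with 0.43 ± 0.15 (SE; adjusted p = 0.0976) at 18 h. These lists also hold genes that epithelial cells express, and in whole tissue the cells that changed were not told apart.

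The genes whose pattern was most like that of the contractile genes were taken by Pearson correlation with the mean of the 9 tested genes, ranked over 8299 other genes. Over the 16 arrays they were Lix1l (r = 0.96), C1s (0.91), Serping1 (0.91), Dpt (0.91) and Ccdc3 (0.90). Because the arrays fall into pairs of replicates, the same r was taken over the 8 arrays of each. It was 0.91 and 0.95 for Lix1l, 0.86 and 0.90 for C1s, 0.82 and 0.91 for Serping1, 0.67 and 0.87 for Dpt and 0.73 and 0.84 for Ccdc3, within replicates 1 and 2 and within replicates 3 and 4. With the group means taken off they were Maob (r = 0.97), Lix1l (0.96), Osr2 (0.94), Mef2a (0.94) and Pkdcc (0.93). Within the pairs, with the group means left in, r was 0.59 and 0.86 for Maob and 0.33 and 0.70 for Osr2. It was -0.09 and -0.30 for Mef2a and 0.80 and 0.54 for Pkdcc. All the genes named here were lower in replicates 3 and 4 than in replicates 1 and 2, by -0.28 for Ccdc3 to -1.82 for Dpt. For Mef2a, whose r was below 0 within each pair, this difference was -0.63. The group means are in 1 measure and not in the other, so the 2 alone cannot show where the likeness lay. These values describe arrays that share tissue, scaling and the replicate divide, and no test goes with them.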

How the data were processed

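RNA from 16 tissue samples was hybridised to 1 Affymetrix rat array each, 4 arrays per group. The deposited value table gives 1 log2 value per probe set and array, made by the authors with GCRMA, which corrects background by probe sequence, quantile-normalizes and summarises, per the submitters' processing notes (version not given in the sources used here). Values ran from 2.22 to 15.1 and array medians of the tested probe sets from 7.51 to 7.62, with 0 pairs of identical arrays. Scanner files were not used here.

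Of 31099 probe sets 57 controls were left out. The platform annotation of 2016 gave 20826 of the other 31042 1 symbol, 436 several and 9780 none. By Entrez ID 20758 symbols were found in a gene table of GRCr8 and 68 were not. Probe sets at or above 5 in at least 4 of 16 arrays (13410, for 8344 genes) entered 1 limma fit (lmFit, eBayes) of 4 group means over all 16 arrays, with limma 3.58.1 in R 4.3.3. Benjamini-Hochberg adjustment ran over all tested probe sets within a comparison, and genes with an adjusted p under 0.05 are said to be called. The script was tested on simulated data with known changes.

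The 10 genes, the lists, the rule for named genes and the comparison of replicate pairs were chosen with earlier results of these data known. Named are all 10 genes, up to 4 called genes per list or, with none called, the gene of smallest p, and the 5 most alike genes by each of the correlations described. Acta1, Srf, Myocd, Myl12a and the marker genes printed were named after their values were seen. Deviations from the group means correlated between arrays of the same replicate number by over 0.1 for all 4 numbers in 5 of 6 comparisons of groups, and for 3 of 4 in 18 h against sham (0.0065 for replicate 1). By the rule that every pair exceed 0.1 the numbers pair the arrays in those 5, and results with the number as a block stand beside those whose calls it changes. The median was 0.41 for equal numbers and 0.39 for different numbers on the same side of the divide, and the labels do not say what a number stands for. The alternatives were the prior, the minimum level, the scaling, the samples fitted, blocks for replicate number, replicate pair and array set, each replicate pair alone, the mean of a gene's probe sets, a stricter threshold and each array left out. The array sets are replicates 1 and 2 of all groups, replicates 3 and 4 of sham and 6 h, and replicates 3 and 4 of 12 h and 18 h.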

Additional observations from a re-analysis of the deposited data

Results flagged for a closer look

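In 36 groups of 4 arrays (9 genes in 4 groups) the gap between an extreme array and its nearest neighbour was set against the range of the group and compared with Dixon's 95% critical value for 4 samples. Chance passes it in about 1 in 20 groups. It was passed in 2 groups, both of Myl9: at 6 h the highest array, replicate 1 at 10.90, had a ratio of 0.846, and at 12 h the highest array, replicate 2 at 11.15, had a ratio of 0.871. Actg2 differed between times in the test of the difference itself, by 0.73 from 6 h to 18 h (adjusted p = 0.0386 by limma), with the limits given in the report.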

How the results depend on the processing

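For the 9 tested genes 63 changes were recomputed under 1766 alternatives, of which 1658 kept the direction and the side of the threshold, 14 lost a call, 10 gained one and 84 turned the direction. None of the turned changes was called in the report or in its alternative, and the largest had a size of 0.32.

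Counts of called genes stayed within 1.5 times under all alternatives except these. For 18 h against 6 h (1 called) the count was 0 at an adjusted p under 0.01, with no minimum level, with only the 2 groups compared and within replicates 1 and 2, 2 with the replicate block, 3 with the pair block, 4 within replicates 3 and 4, and 0 to 1 when an array was left out. For 12 h against 6 h (0 called) it was 1 with the replicate block and with the pair block. For any time against sham (0 called) it was 1 with the replicate block, with the pair block and within replicates 3 and 4, and 0 to 1 when an array was left out, with the 1 arising without 6 h replicate 1. The replicate block changed no other count of calls over the 9 genes.

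The turned changes were not called, and the causes were not tested. With centred arrays these were Actg2 (-0.0077) and Myl9 (-0.018) at 12 h, and Tagln (0.011) across the replicate pairs. After a further quantile normalization they were Actg2 (-0.0017) at 12 h, and Myl9 (-0.017) across the replicate pairs. With the mean of a gene's probe sets they were Mylk (-0.057) at 12 h, and Mylk (-0.013) at 18 h. Under the set block they were Acta2 (0.022), Actg2 (-0.045) and Mylk (-0.14) at 12 h, and Mylk (-0.044) at 18 h. Within replicates 1 and 2 alone they were Tagln (0.18) at 6 h, and Acta2 (0.17) at 12 h, and Myh11 (-0.053) and Mylk (-0.12) at 18 h, and Acta2 (-0.065), Actg2 (-0.029), Cnn1 (-0.37), Des (-0.10), Smtn (0.10) and Mylk (-0.18) from 12 h to 18 h, and Myh11 (-0.016) from 6 h to 18 h. Within replicates 3 and 4 alone they were Actg2 (-0.25), Tagln (-0.14), Cnn1 (-0.17), Des (-0.036), Myl9 (-0.14) and Smtn (0.032) at 12 h, and Myh11 (0.14), Tagln (0.23) and Myl9 (0.045) from 12 h to 18 h, and Myl9 (0.14) from 6 h to 18 h.

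With 1 array left out, changes that turned had these lowest and highest values. At 6 h, Myh11 ran from -0.11 to 0.021. At 12 h, Acta2 ran from -0.35 to 0.21, Actg2 ran from -0.072 to 0.16, Cnn1 ran from -0.015 to 0.30, Myl9 ran from -0.084 to 0.065 and Mylk ran from -0.054 to 0.14. At 18 h, Acta2 ran from -0.17 to 0.28. From 6 h to 12 h, Acta2 ran from -0.063 to 0.50. From 12 h to 18 h, Acta2 ran from -0.15 to 0.41, Myh11 ran from -0.087 to 0.074, Cnn1 ran from -0.11 to 0.20, Des ran from -0.058 to 0.43, Smtn ran from -0.14 to 0.12 and Mylk ran from -0.00018 to 0.18. From 6 h to 18 h, Myl9 ran from -0.11 to 0.058. Across the replicate pairs, Tagln ran from -0.095 to 0.052 and Myl9 ran from -0.031 to 0.074.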

Other observations

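Within each pair of replicates the 9 tested genes were also compared with each other over the 8 arrays. The median correlation of a gene with the other 8 ran from -0.05 for Smtn to 0.56 for Acta2 within replicates 1 and 2, and from 0.47 for Smtn to 0.82 for Cnn1 within replicates 3 and 4. Within replicates 3 and 4 it was 0.79 for Actg2, 0.77 for Des and for Mylk, and 0.76 for Tagln. The 8 arrays of a pair span the 4 time groups, so these values hold changes with time as well as spread within groups, and the difference between the pairs was not tested.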
